A study of Canis lupus familiaris with 4 samples.

Results

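The genes that a dividing cell switches on to copy its DNA and to divide its chromosomes were followed in canine mammary ductal carcinoma and in the mammary tissue beside it. The members were set by gene name. The module holds 59 genes, of which 53 are listed in the count tables among 11277 genes in all. They fall into 31 mitotic genes (of 37 named) and 22 S-phase genes (of 22 named). CCNB1, CCNB2, AURKB, CENPF, CENPK and KIF4A, all of the mitotic class, are not listed in the tables and were not analysed here.

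A cell that enters S phase loads the MCM helicase onto its origins, raises its supply of nucleotides and copies its DNA under the watch of checkpoint kinases. It then builds a spindle, condenses its chromosomes, attaches them through kinetochores and cuts itself apart. Many of these transcripts are scarce in resting cells, so that in mammary tumors MKI67 and its companions are read as a measure of how many cells divide.

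RNA came from the radical mastectomies of 6 female dogs of different breeds, not neutered, 5 to 14 years old, with early-stage disease that had arisen naturally. Carcinoma (T1 and T2) was set against non-tumor mammary tissue from beside it (the control, C1 and C2), and each of the 4 libraries was a pool of 3 dogs. By the account of the study C1 and T1 share their dogs (pool 1), as do C2 and T2 (pool 2), so an n of 2 counts pools, single dogs are not seen, and the control lay beside a tumor in the same animal. Without a block, the p-values measure the spread between the pools of a tissue. A fit with the pool as a block, written below as within dogs, takes that spread out. Its p-values rest on how the difference of carcinoma to control varied between the pools, and on spread shared across genes.

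Totals ran from 3236218 counts (T2) and 4027367 (C2) to 32352002 (C1) and 35496260 (T1), and every listed gene of the module had at least 10 counts in each library. Levels below are CPM (counts scaled to library size after TMM). At these depths 3 counts amount to 0.0858 to 0.892 CPM. Differences are log2 fold changes of carcinoma over control from edgeR's quasi-likelihood test, and the Benjamini-Hochberg adjustment of p covers all 11277 genes. A gene was called at an adjusted p under 0.05 and a log2 fold change at or beyond −1 or 1. Intervals are 95% intervals of that fold change. With 2 libraries against 2, an exact two-sided permutation test of a single gene cannot go below 0.333.

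No gene of either class passed as higher or lower in carcinoma. Of the 53 genes, 0 were called higher and 0 lower by edgeR, where 4.62% and 5.24% of all genes were (9.86% in either direction), and DESeq2 also called 0. Without the fold threshold the count was again 0 in each direction, where 6.93% of all genes passed as higher and 6.96% as lower. At an unadjusted p under 0.05, 1 gene was higher (PLK1) and 10 were lower, which is 1.89% and 18.9% of the module beside 14.6% and 13.9% of all genes. The fold change lay below 0 for 44 of the 53 genes, and its median was −0.33, beside 0.03 over all genes. By class the median was −0.33 for the mitotic and −0.40 for the S-phase genes. Without C1 the mitotic median was −0.19 and the S-phase median −0.43.

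The intervals bounded a rise more closely than a fall. For 52 of the 53 genes the upper end of the interval lay under a log2 fold change of 1, the exception being PLK1. The lower end lay above −1 for 29 genes.

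When the comparison was made within dogs, that is with a replicate block for the pool, 32 of the 53 genes passed an adjusted p of 0.05 as lower and 3 as higher (edgeR). These shares, 60.4% and 5.66%, stand beside 30.3% and 33.8% of all genes. Counting within dogs without the fold threshold was a rule chosen after seeing the data. By class, 16 of 31 mitotic and 16 of 22 S-phase genes were lower, and the 3 higher genes (PLK1, PRC1 and SMC4) were mitotic. The block leaves 1 residual degree of freedom a gene, so that its p-values rest largely on the spread shared across genes, and the fold changes stayed small, from −0.85 to 0.96, with 0 genes called higher and 0 lower at the fold threshold (7.09% and 6.83% of all genes). With the libraries thinned to the depth of T2 and the block kept, 21 genes were lower and 1 higher (21.8% and 24.6% of all genes).

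The order of the 4 libraries can be read without a model. Both carcinoma libraries lay below both controls for 32 genes (60.4%, against 28% of all genes) and above both for 3 genes (5.66%, against 29.6%). Carcinoma was the lower tissue in each pool for 39 genes (73.6%, against 39.4% of all genes) and the higher in each pool for 6 (11.3%, against 45.1%).

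**Figure D1:**
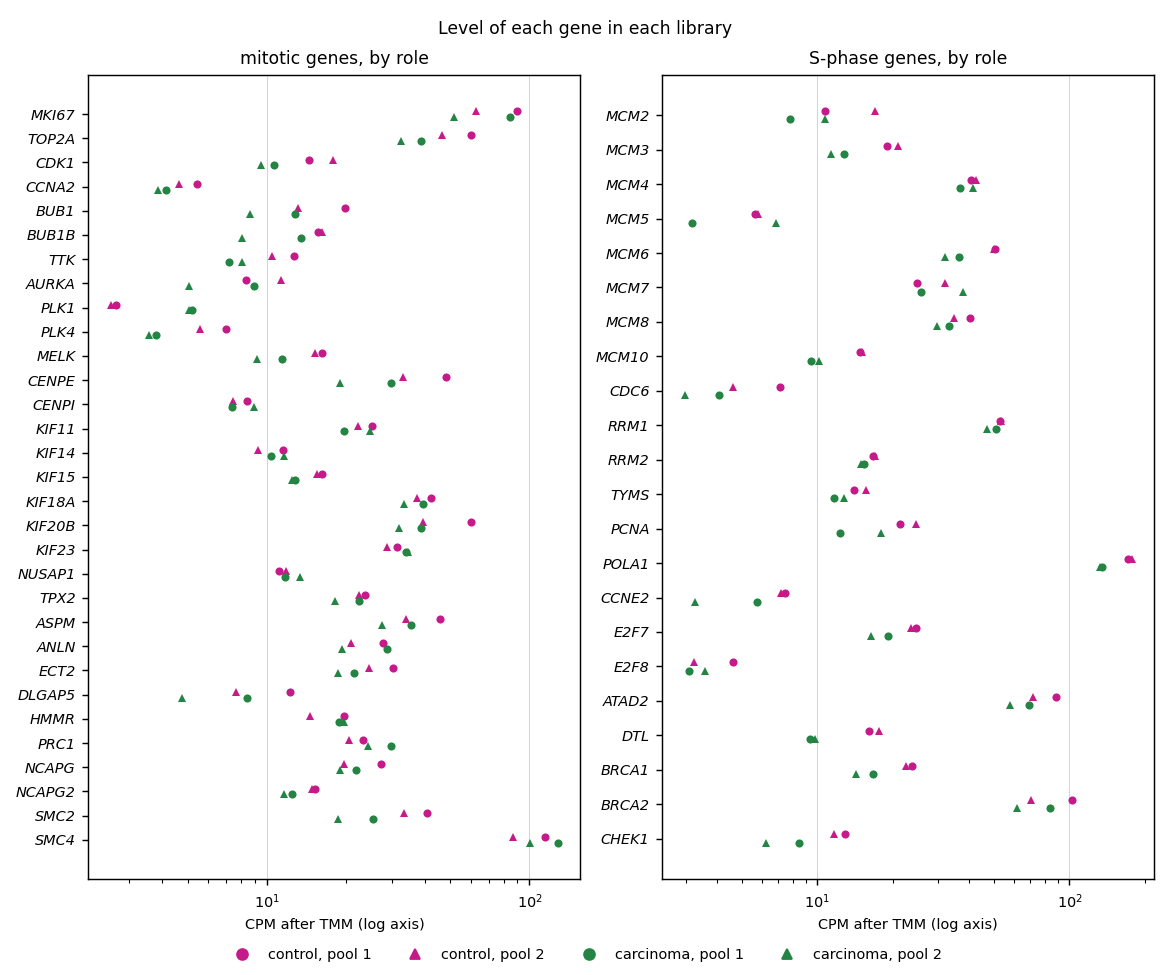
Level of each of the 53 genes in CPM after TMM (log axis), mitotic genes on the left and S-phase genes on the right in the order of their roles. Control is pink and carcinoma green, circles are pool 1 and triangles pool 2, and for 32 genes both green symbols lie to the left of both pink ones.

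The tissues differed in more than these genes. Of the cell type marker lists, 3 of the 6 listed T and NK cell genes were lower in carcinoma, with a summed level of 64.6 and 55.6 CPM in control and 19.9 and 19.3 CPM in carcinoma. All 13 striated muscle genes were lower (2089 and 3213 CPM against 28.3 and 32.7 CPM), as were 4 of 8 fibroblast genes (7450 and 8349 against 2804 and 3636 CPM), 4 of 6 blood endothelial genes (630 and 671 against 299 and 300 CPM) and 2 of 8 macrophage genes (518 and 542 against 309 and 347 CPM). Of 9 luminal epithelial genes 3 were lower (ELF5, ESR1 and PGR), with summed levels of 1805 and 1670 CPM in control and 1279 and 1344 CPM in carcinoma. The fold change lay above 0 for 4 of the 9 (KRT19, CDH1, ELF3 and GATA3). With the block 3 of the 9 passed an adjusted p of 0.05 as higher and 5 as lower (edgeR). KRT7, KRT8 and KRT18 are not listed in the tables. The 8 basal genes gave 1235 and 1330 against 1356 and 1593 CPM with 0 called by edgeR without the block (KRT5 and OXTR were called higher with it). Of these 8 genes 5 had a fold change below 0. With the block 3 basal genes passed an adjusted p of 0.05 as higher and 4 as lower (edgeR). Of 9 cartilage genes 5 were higher (150 and 161 against 1894 and 2202 CPM). The adipocyte list had 2 of 8 genes listed (80.6 and 79.5 against 54.9 and 59.8 CPM), the B and plasma cell list 3 of 11 (411 and 333 against 399 and 320 CPM). Genes were missing from other lists too, with 6 of 14 T and NK cell and 13 of 18 striated muscle genes listed. The tables also held 9 of 15 luminal, 8 of 12 basal, 6 of 10 blood endothelial, 8 of 10 macrophage and 8 of 9 fibroblast genes. With the block 7.09% of all genes were called higher and 6.83% lower. All 6 T and NK cell genes, 6 of 8 fibroblast genes and 6 of 9 cartilage genes were then called in the directions given above. The part of these shifts in the values of the module was not tested. In bulk tissue, fewer dividing cells and less RNA per dividing cell cannot be told apart.

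MKI67, which encodes the Ki-67 antigen scored by pathologists as a sign of division, overlapped between the tissues. It stood at 89.7 CPM in C1 and 62.4 CPM in C2, against 84.0 CPM in T1 and 51.7 CPM in T2. Pool 2 was the lower pool in both tissues. Its log2 fold change was −0.15 (interval −0.90 to 0.59, adjusted p = 0.769 by edgeR), so a rise beyond 1.51-fold lies outside the interval. With the replicate block it was −0.14 (standard error 0.07, adjusted p = 0.0999). TOP2A, which encodes the topoisomerase that untangles replicated chromosomes, was 59.8 and 46.6 CPM in C1 and C2 and 38.6 and 32.4 CPM in T1 and T2. Both carcinoma libraries lay below both controls, with a log2 fold change of −0.58 (interval −1.08 to −0.09, adjusted p = 0.127), and within dogs it passed as lower (−0.61, standard error 0.09, adjusted p = 1.99e-10 by edgeR with the block).

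The listed genes of mitotic entry were CDK1 and CCNA2. CDK1, the kinase that drives cells into mitosis, was 14.5 and 17.8 CPM in control and 10.7 and 9.52 CPM in carcinoma (log2 fold change −0.66, interval −1.30 to −0.02, adjusted p = 0.168). CCNA2, its partner cyclin from S phase to early mitosis, was 5.45 and 4.64 CPM in control against 4.15 and 3.87 CPM in carcinoma. For both genes the carcinoma libraries lay below both controls, as they did for 28% of all genes.

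Among the 7 listed mitotic kinases, 6 had a fold change below 0. BUB1 and BUB1B, kinases of the spindle checkpoint, had log2 fold changes of −0.61 and −0.51, and TTK, which starts that checkpoint, of −0.62. BUB1B stood at 15.6 CPM in C1, 16.2 CPM in C2, 13.6 CPM in T1 and 8.03 CPM in T2, so that both carcinoma libraries were lower but far apart from each other. PLK4, which sets the copying of centrioles, had the lowest value of the mitotic class, with 7.01 and 5.56 CPM in control against 3.78 and 3.57 CPM in carcinoma (log2 fold change −0.79, interval −1.56 to −0.02, adjusted p = 0.169). MELK, a kinase widely used as a proliferation marker, had a log2 fold change of −0.60.

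AURKA, whose kinase matures the centrosomes, went apart by pool. It was 8.36 CPM in C1 and 8.99 CPM in T1, but 11.4 CPM in C2 and 5.06 CPM in T2, the last resting on 17 counts. The log2 ratio of carcinoma to control was therefore 0.10 in pool 1 (interval −0.14 to 0.35) and −1.17 in pool 2 (−2.06 to −0.35), where these intervals cover counting error only.

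PLK1, the kinase that acts from centrosome to cytokinesis, had the highest fold change of the module. It was 2.68 CPM in C1 and 2.55 CPM in C2, and 5.21 CPM in T1 and 5.06 CPM in T2, on 79, 11, 182 and 17 counts. The carcinoma libraries lay above the controls by close to the same ratio in each pool. Its log2 fold change of 0.97 (interval 0.22 to 1.72, adjusted p = 0.102) did not pass, and within dogs it passed below the fold threshold (0.96, standard error 0.24, adjusted p = 1.85e-04). After thinning to the depth of T2 its log2 fold change was 0.54. The deposited length of PLK1 is 2.19 times the span of the gene in RefSeq (assembly UU_Cfam_GSD_1.0), where the neighbouring gene ERN2 overlaps it, so its counts may hold reads of more than PLK1.

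**Figure D2:**
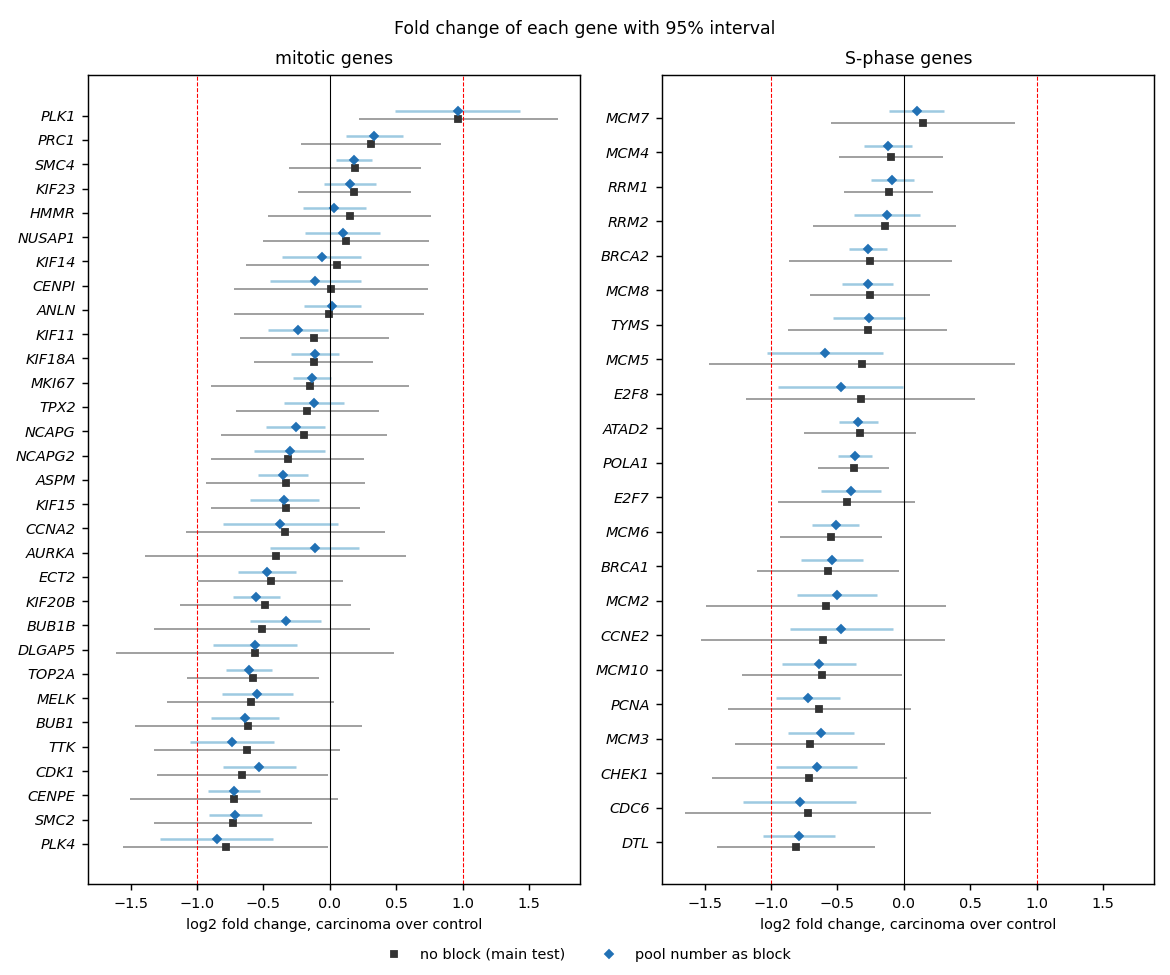
Log2 fold change of carcinoma over control with 95% intervals for each gene, sorted within class, from the main test (black squares) and with the pool number as a block (blue diamonds). Dashed lines mark −1 and 1, and PLK1 at 0.97 is the highest value while DTL at −0.81 and PLK4 at −0.79 are the lowest of the main test.

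The listed kinetochore genes were CENPE and CENPI. CENPE, the motor protein that carries chromosomes to the spindle equator, was 48.3 and 32.9 CPM in control and 29.6 and 19.0 CPM in carcinoma (log2 fold change −0.72, interval −1.50 to 0.06, adjusted p = 0.203). Pool 2 lay below pool 1 in each tissue, and within dogs CENPE passed as lower with the smallest adjusted p of the module (−0.72, standard error 0.10, adjusted p = 2.13e-11). CENPI, of the inner kinetochore, had a log2 fold change of 0.01.

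Mitotic kinesins, the motors that build and slide spindle fibers, had fold changes on both sides of 0. Their 6 values ran from −0.49 (KIF20B) to 0.18 (KIF23) with a median of −0.12. KIF11, which pushes the spindle poles apart, was 25.2 and 22.3 CPM in control and 19.7 and 24.7 CPM in carcinoma, and the tissues overlapped. KIF23, of the central spindle, was 31.3 and 28.7 CPM against 33.9 and 34.5 CPM, above control in both carcinoma libraries but by less than the test could separate (interval −0.24 to 0.61). KIF14, KIF15 and KIF18A had log2 fold changes of 0.06, −0.33 and −0.12.

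Genes of spindle assembly and cytokinesis were also mixed, 5 of 8 below 0 with a median of −0.09. PRC1, which bundles the midzone microtubules, was 23.2 and 20.6 CPM in control and 29.7 and 24.4 CPM in carcinoma (log2 fold change 0.31, interval −0.22 to 0.84, adjusted p = 0.391), and within dogs it passed as higher (0.33, standard error 0.11, adjusted p = 0.00489). ANLN, which organizes the cleavage furrow, was 27.7, 20.9, 28.6 and 19.3 CPM in C1, C2, T1 and T2, so that the pools differed and the tissues did not separate. TPX2, an activator of the Aurora A kinase, was 23.6 and 22.5 CPM in control against 22.4 and 18.1 CPM in carcinoma. HMMR and NUSAP1 had log2 fold changes of 0.15 and 0.12, and ASPM, ECT2 and DLGAP5 of −0.33, −0.44 and −0.56.

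Condensin genes, whose products fold the chromosomes, split between their subunits. SMC2 and SMC4 encode the paired ATPases of the same ring. SMC2 was 40.6 and 33.4 CPM in control and 25.3 and 18.7 CPM in carcinoma (log2 fold change −0.73, interval −1.33 to −0.14, adjusted p = 0.114). SMC4 was 114 and 86.7 CPM in control and 128 and 101 CPM in carcinoma (0.19, interval −0.31 to 0.69, adjusted p = 0.570). Within dogs the pair passed in opposite directions by edgeR with the block, SMC2 lower (adjusted p = 2.48e-10) and SMC4 higher (adjusted p = 0.0164). NCAPG, a regulatory subunit, was 27.1 and 19.7 CPM in control and 21.9 and 19.0 CPM in carcinoma, with overlapping tissues, and NCAPG2 had a log2 fold change of −0.32.

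Of the S-phase genes, 21 of 22 had a fold change below 0. The MCM genes encode the ring that opens DNA at origins (MCM2 to MCM7), a related helicase of repair (MCM8) and a factor that starts the fork (MCM10), and CDC6 encodes the loader of the ring. The subunits of the ring ranged from −0.71 (MCM3) to 0.14 (MCM7). MCM3 was 18.9 and 20.9 CPM in control and 12.8 and 11.3 CPM in carcinoma (log2 fold change −0.71, interval −1.27 to −0.14, adjusted p = 0.110). MCM6 was 50.7 and 50.3 CPM in control and 36.5 and 32.1 CPM in carcinoma (−0.55, interval −0.93 to −0.16), with the smallest adjusted p of the module in the main test (0.0801). MCM2 was 10.7 and 16.9 CPM against 7.81 and 10.7 CPM, with C1 and T2 almost level.

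MCM7 was the S-phase gene with a value above 0, at 24.9 and 32.2 CPM in control and 25.7 and 37.8 CPM in carcinoma (log2 fold change 0.14, interval −0.55 to 0.84). MCM4 was 40.7, 42.7, 36.9 and 41.3 CPM in C1, C2, T1 and T2. Both genes overlapped between the tissues, and pool 2 was higher than pool 1. The deposited length of MCM7 is 1.52 times its RefSeq span, which AP4M1 overlaps. MCM5 had opposite signs by pool, −0.83 in pool 1 and 0.24 in pool 2, the latter on 25 and 23 counts. MCM10 and CDC6 had log2 fold changes of −0.62 and −0.72, and MCM8 of −0.26. CDC6 stood at 7.11 and 4.64 CPM in control and 4.06 and 2.97 CPM in carcinoma, the last on 10 counts.

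Nucleotide supply had the S-phase median nearest to 0 (−0.14), with 3 of 3 genes between −0.27 and −0.11. RRM1, the large subunit of ribonucleotide reductase, was 52.9 and 53.3 CPM in control and 50.9 and 47.0 CPM in carcinoma (log2 fold change −0.11, interval −0.45 to 0.22). RRM2, the subunit that limits the enzyme in S phase, was 16.6 and 16.9 CPM against 15.4 and 14.9 CPM. TYMS, which makes thymidylate, was 13.9 and 15.5 CPM against 11.6 and 12.8 CPM. In each of the 3 genes carcinoma lay below control without overlap, as it did in 28% of all genes. None of them passed by edgeR with or without the block, or by DESeq2.

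At the fork, PCNA, the sliding clamp, was 21.3 and 24.6 CPM in control and 12.2 and 17.8 CPM in carcinoma (log2 fold change −0.64, interval −1.33 to 0.06, adjusted p = 0.204). POLA1, the catalytic subunit of the polymerase that lays down primers, was 171 and 177 CPM in control and 135 and 133 CPM in carcinoma (−0.38, interval −0.64 to −0.11, adjusted p = 0.0810). POLA1 had the narrowest interval of the module together with the most counts, and replicates of a tissue lay close together.

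DTL, which helps to destroy licensing factors once DNA is copied, had the lowest fold change of all 53 genes. It was 16.0 and 17.6 CPM in control and 9.33 and 9.81 CPM in carcinoma (log2 fold change −0.81, interval −1.41 to −0.22, adjusted p = 0.0901). The tissues were well apart and the pools close. The deposited length of DTL is 1.68 times its RefSeq span, which no other coding gene overlaps. CCNE2, a cyclin of S-phase entry, was 7.42 and 7.19 CPM in control and 5.78 and 3.27 CPM in carcinoma, the last on 11 counts. ATAD2, a chromatin regulator that acts with E2F factors, was 88.7 and 71.6 CPM against 69.1 and 58.3 CPM. The atypical repressors E2F7 and E2F8 had log2 fold changes of −0.43 and −0.32, E2F8 with opposite signs by pool.

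Of the checkpoint and repair genes, CHEK1, the kinase that halts cells with stalled forks, was 12.9 and 11.6 CPM in control and 8.41 and 6.25 CPM in carcinoma (log2 fold change −0.71, interval −1.44 to 0.02, adjusted p = 0.186). BRCA1, of homologous recombination, was 23.7 and 22.5 CPM against 16.6 and 14.3 CPM (−0.57, interval −1.10 to −0.04, adjusted p = 0.153). BRCA2, also of homologous recombination, had a log2 fold change of −0.25. Within dogs these 3 genes passed as lower, as did 30.3% of all genes (edgeR with the block).

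**Figure D3:**
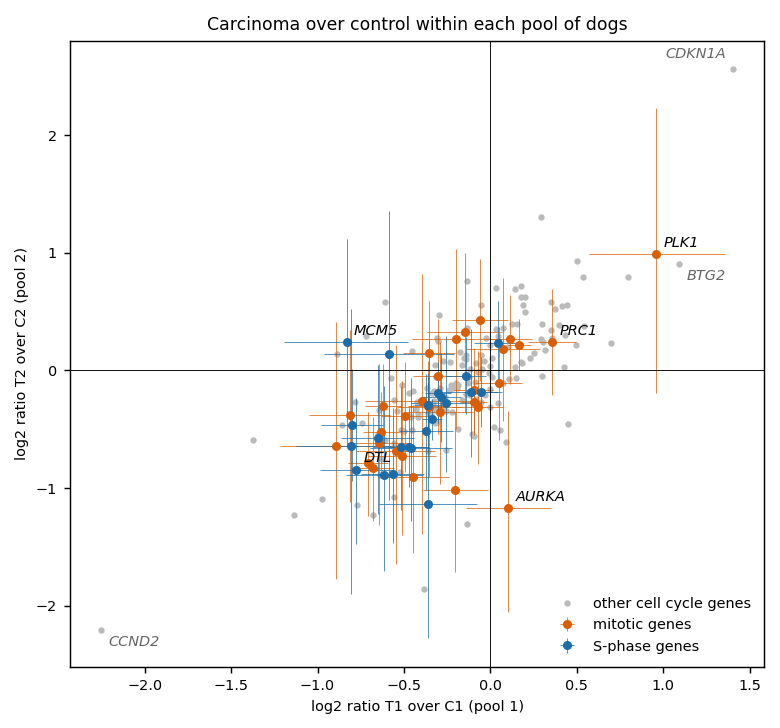
Carcinoma over control as a log2 ratio, pool 1 (T1 and C1) on the x axis and pool 2 (T2 and C2) on the y axis, mitotic genes in orange and S-phase genes in blue with 95% counting intervals, and 160 other cell cycle genes in grey. The lower left part holds 39 of the 53 genes and the upper right 6, and CCND2 and CDKN1A lie farthest out among the grey points.

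Pool by pool, the median log2 ratio of the mitotic genes was −0.31 in pool 1 and −0.31 in pool 2, and that of the S-phase genes −0.42 and −0.44. The pools disagreed in sign for 8 genes (AURKA, CENPI, KIF11, KIF14, HMMR, ANLN, MCM5 and E2F8). Summed over each class, the 31 mitotic genes took 885 and 710 CPM in the control libraries and 757 and 617 CPM in T1 and T2, so T1 lay between the controls. The 22 S-phase genes took 770 and 738 CPM in control and 609 and 582 CPM in carcinoma, and these did not overlap. The ratio of S-phase to mitotic sums was 0.869 (C1) and 1.04 (C2) in control and 0.804 (T1) and 0.942 (T2) in carcinoma, higher in pool 2 than in pool 1 in each tissue and lower in carcinoma than in control in each pool.

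CPM of different genes cannot be set side by side without a length. The deposited lengths lie near the gene span with introns (within 20% of the RefSeq span for 41 of the 53 genes). A level per kb of such a length also depends on the introns and does not order the genes by transcript level. On that scale, in CPM per kb over the 4 libraries, PCNA (3.18), MKI67 (3.01), SMC4 (2.83) and MCM7 (2.71) stood highest and CENPI (0.104), MELK (0.135) and PLK1 (0.150) lowest. In RefSeq, 11 of the 53 genes overlap another coding gene. Among them are PLK1 and MCM7, but also CCNA2 and MCM10, which lay lower in carcinoma. The deposited length also exceeds the RefSeq span for CDK1 (1.31 times) and BUB1B (1.32 times). The sources differ on the counting program, so whether strand was used is uncertain. Among the other 42 genes, 28 were lower and 2 higher within dogs, with a median log2 fold change of −0.40. Among the 27 genes with at least 50 counts in both C2 and T2, 14 were lower and 2 higher, with a median of −0.20. Over all genes, with no selection by overlap or count, the shares lower and higher were 30.3% and 33.8%. The shares among all genes selected in the same way were not computed.

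Other genes of the cell cycle, in lists of 225 genes of which 160 are in the tables, were called in 2 cases, CDKN1A higher and CCND2 lower. That is fewer than the shares of all genes called, 4.62% higher and 5.24% lower. The median log2 fold change of the 160 genes was −0.15, and 106 of them lay below 0. With the block 64 passed an adjusted p of 0.05 as lower (40%) and 21 as higher (13.1%), beside 30.3% and 33.8% of all genes.

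CDKN1A encodes p21, the inhibitor that stops CDKs after damage or on differentiation. It was 5.45 and 4.64 CPM in control and 14.4 and 27.4 CPM in carcinoma (log2 fold change 1.99, standard error 0.40, adjusted p = 0.0348 by edgeR). Both carcinoma libraries were above both controls, T2 well above T1. The adjusted p was 0.119 without C1, 0.0706 without C2, 0.0719 without T2 and 0.0604 after thinning, while it was 0.0163 without T1. BTG2, another brake on entry into S phase, was 5.69 and 6.03 CPM against 12.1 and 11.3 CPM (1.01, standard error 0.26, adjusted p = 0.0714), and was called higher within dogs (1.06, adjusted p = 9.18e-09). The other genes in the list of brakes lay on both sides of 0. CDKN2C, which encodes an inhibitor of the G1 kinases, and MDM2 had log2 fold changes of 0.49 and 0.34 (both named after their values were seen). MDM2 is not itself a brake, since its product marks p53 for destruction. GADD45A had the lowest value (−0.70, also named after its value was seen). CDKN1B, which encodes p27, had a log2 fold change of −0.30, the retinoblastoma gene RB1 of −0.43 and CCNG2, a cyclin of resting cells, of −0.43. Of the 14 genes in that list, 9 lay below 0.

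CCND2, a D-type cyclin that couples growth signals to the G1 kinases, was 42.1 and 38.5 CPM in control and 8.84 and 8.33 CPM in carcinoma. The libraries of a tissue were close, and the log2 fold change was −2.22 (standard error 0.20, adjusted p = 0.00393 by edgeR), from −2.32 to −2.19 when a library was left out. CCND1, the D-type cyclin often raised in human breast tumors, was 11.6 and 23.2 CPM in control and 9.33 and 17.0 CPM in carcinoma (−0.42, interval −1.64 to 0.79), its pools farther apart than its tissues. CDK6, the partner of these cyclins, was 378 and 370 CPM against 347 and 324 CPM, and CDK4 is not listed. MYC and E2F3, which promote S-phase entry, had log2 fold changes of 0.45 and 0.38 that did not pass (adjusted p = 0.215 and 0.319), and TFDP2 and CCNH had −0.36 and −0.36.

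The 32 listed origin and fork genes outside the module had a median of −0.19, 25 of them below 0. RFC3, of the loader of PCNA, was 10.8 and 12.5 CPM in control and 6.35 and 5.65 CPM in carcinoma (log2 fold change −0.94, adjusted p = 0.0946 by edgeR). RFC4, GINS4 and PRIM2 had log2 fold changes of −0.64, −0.74 and −0.32, and within dogs 13 of the 32 passed as lower (40.6%, beside 30.3% of all genes) and 0 as higher (beside 33.8%) by edgeR. Spindle and kinetochore genes outside the module had a median of −0.11 over 43 genes. SPC25, of the outer kinetochore, was 4.47 and 4.17 CPM in control and 2.03 and 1.78 CPM in carcinoma (log2 fold change −1.15, adjusted p = 0.0769 by edgeR). CENPW, of the centromere, was 7.42 and 6.26 CPM against 2.86 and 4.16 CPM (−1.05, adjusted p = 0.117). Both SPC25 and CENPW were called lower within dogs, as were 6.83% of all genes. CENPQ, of the inner kinetochore, was 11.5 and 9.50 CPM against 5.87 and 4.46 CPM, and SKA3, which couples kinetochores to microtubules, had a log2 fold change of −0.74.

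Cohesin, the ring that holds sister chromatids together, was the group with the lowest median outside the module (−0.41 over 11 genes, 10 of them below 0). STAG2 was 364 and 311 CPM in control and 236 and 208 CPM in carcinoma (log2 fold change −0.60, standard error 0.14, adjusted p = 0.0507 by edgeR and 0.00543 by DESeq2). RAD21, of the ring itself, was 193 and 163 CPM against 131 and 107 CPM, and PDS5B, which regulates its release, 183 and 152 CPM against 120 and 101 CPM. ESCO2, the acetyltransferase that locks the ring in S phase, was 10.8 and 10.4 CPM against 6.72 and 4.46 CPM. Within dogs 8 of the 11 passed as lower and 1 as higher, beside 30.3% and 33.8% of all genes. The anaphase-promoting complex was the group above 0, with a median of 0.08 over 10 genes. ANAPC5 was 32.9 and 38.2 CPM in control and 48.0 and 49.7 CPM in carcinoma (0.46, adjusted p = 0.132 by edgeR). ANAPC7, ANAPC1 and ANAPC16 had log2 fold changes of 0.17, −0.17 and −0.27.

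In the damage response list the median was −0.16 over 32 genes. BARD1, the partner of BRCA1, was 58.7 and 60.0 CPM in control and 36.3 and 34.8 CPM in carcinoma, and passed the adjusted p but not the fold threshold (log2 fold change −0.74, standard error 0.13, adjusted p = 0.0264 by edgeR). FANCD2, of crosslink repair, was 27.9 and 27.8 CPM against 19.5 and 19.6 CPM, and TOPBP1 and ATM, of damage signalling, had log2 fold changes of −0.50 and −0.29 (none passed by edgeR without the block).

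**Figure D4:**
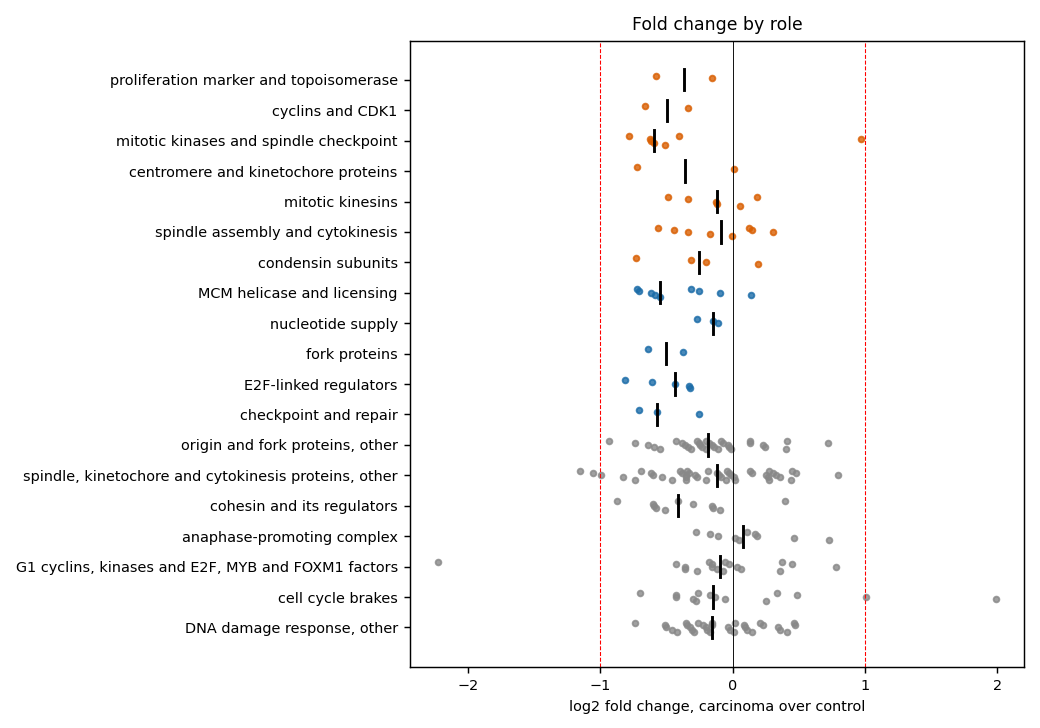
Log2 fold change of carcinoma over control (main test) for each listed gene by role, mitotic in orange, S-phase in blue and other cell cycle genes in grey, with a black bar at each group's median. The medians of all 12 groups of the module lie below 0, the anaphase-promoting complex stands at 0.08, and CCND2 (−2.22) and CDKN1A (1.99) lie farthest outside the dashed lines at −1 and 1.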

How the data were processed

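The deposited tables hold whole-number counts per gene, not normalized, with a length per gene (another quantity, in bases). For mapping and counting, TopHat2 and HTSeq are named in the methods of the study, but STAR and featureCounts (beside FastQC and DESeq2) in the processing notes of the submitters. The kit keeps strand and HTSeq was run at its defaults by those methods, but no setting of featureCounts and no genome build are stated in the sources used here. The quasi-likelihood test of edgeR 4.0.16 (R 4.3.3) was run on all 11277 genes after TMM scaling, and filterByExpr removed none. DESeq2 1.42.0 was an alternative. Standard errors are the absolute log2 fold change over the square root of F.

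The module and the gene lists were chosen with earlier results of these data known. Named by rule were a preset set of landmark genes, the 3 highest and 3 lowest fold changes of each class, and the 4 smallest adjusted p of each other list. By the account of the study equal pool numbers mark the same dogs, and deviations from the group means correlated at 0.782 over all genes and 0.423 over the module. Pool number also goes with depth (C1 and T1 deep, C2 and T2 shallow), so dogs and depth cannot be told apart in this correlation or in the block. The fit was tested on simulated counts. No coordinates or sequences are printed, since no genome of the build in the files was used here.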

Additional observations from a re-analysis of the deposited data

How the results depend on the processing

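In all settings tried, 0 of the 53 genes were called higher and 0 lower (edgeR, and by DESeq2 likewise), and the promoter motif description that had been planned was not run, since no promoter sequences were used here. The medians stayed below 0 in every setting. For the mitotic genes (−0.33) the median was −0.30 with the replicate block, −0.35 by DESeq2 and −0.35 with its size factors, −0.29 with library totals, −0.34 with at least 10 counts in every library, −0.38 without the 10 most abundant features and the muscle genes, and −0.16 after thinning to the depth of T2, and from −0.45 to −0.19 with a library left out. For the S-phase genes (−0.40) it was −0.47 with the replicate block, −0.42 with DESeq2's size factors, −0.38 with library totals, −0.45 without the abundant features and muscle genes and −0.35 after thinning, and from −0.48 to −0.38 with a library left out. The cause of these shifts was not tested.

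Of the other cell cycle genes, 2 were called higher and 3 lower with the replicate block, 0 higher after thinning, and 2 lower at an adjusted p under 0.05 with any fold change. With a library left out, the number called higher ran from 0 to 1 and the number lower was 1. Without SMC4 and POLA1, the genes of each class with most counts, the ratio of S-phase to mitotic sums was 0.777 (C1) and 0.901 (C2) in control. In carcinoma that ratio was 0.754 (T1) and 0.869 (T2), again lower than control in each pool. The count within dogs, a rule chosen after seeing the data, was 33 lower and 3 higher with DESeq2's size factors (31.4% and 33.1% of all genes), 25 and 3 with library totals (23.1% and 35.2%), and 36 and 2 without the abundant features and muscle genes (34.1% and 31%). Over all genes, 800 were called higher and 770 lower with the replicate block and 342 and 421 without C1, against 521 and 591. Depth was lowest in C2 and T2, where the scarcest genes of the module had 11 and 10 counts.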
